A study of Mus musculus with 3 samples.

Results

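The FGF ligand, receptor and feedback genes of the mouse were examined for binding of TBX5, a T-box transcription factor of the heart, in hearts of CD-1 embryos (an outbred stock) at E14.5. The genes were those protein-coding RefSeq genes on chromosomes 1 to 19 whose symbols are Fgf, Fgfr, Spry or Spred with a number, together with Dusp4, Dusp5, Dusp6, Etv4 and Etv5. They numbered 35 of 20665 protein-coding genes on these chromosomes, namely 20 ligand genes, 4 receptor genes, 6 Sprouty and Spred genes, 3 dual-specificity phosphatase genes and 2 ETS factor genes. Binding was read from ChIP-seq, in which chromatin fragments bound by TBX5 are pulled down by an antibody to TBX5 and sequenced. The series has 2 such biological replicates and 1 input of unprecipitated chromatin as control. No genetic change or treatment is given for any of the 3 samples, and the sources used here do not state how many hearts went into each. All peaks came from 1 call on the pooled TBX5 samples, so no spread between replicates could be computed, no test over samples was possible, and every comparison below is a description. Whole hearts were used, so binding in fewer cells and weaker binding in each cell cannot be told apart, and expression was not measured.

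Fibroblast growth factors are mostly secreted ligands that bind receptor tyrosine kinases together with heparan sulfate and activate the RAS and MAP kinase cascade. The cascade induces its own brakes, the Sprouty and Spred proteins and the MAP kinase phosphatases of the DUSP family, and the ETS factors ETV4 and ETV5 carry the signal to target genes. In the developing heart, FGF8 and FGF10 are known for roles in the second heart field, and ligands of the FGF9 subfamily for signalling from epicardium and endocardium to the myocardium. A further subfamily, FGF11 to FGF14, stays inside the cell and modulates voltage-gated sodium channels.

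TBX5 was bound near 16 of the 35 genes. The highest folds lay at the ligand genes Fgf7 and Fgf20. Peaks at promoters, within 2000 bp of a start, were found at 4 of the 6 Sprouty and Spred genes, against 17.9% of all genes. Those of Spry1, Spred1 and Spred2 had −log10 q below 10. A gene was called bound if the summit of at least 1 peak, its position of highest signal, lay in the gene body or within 10 kb of it. The 16 bound genes (45.7%, exact Clopper-Pearson 95% interval 28.8 to 63.4) stood beside 30.9% of all protein-coding genes called by the same rule. By role, 8 of 20 ligand genes, 1 of 4 receptor genes, 4 of 6 Sprouty and Spred genes, 1 of 3 phosphatase genes and both ETS factor genes were bound. With peaks of −log10 q of at least 10 alone, 0 receptor and 0 phosphatase genes were bound, and within 5 kb 0 ETS factor genes. Together they had 23 of the 12436 summits (positions are on mm10), with 10 genes holding 1 summit, 5 holding 2 and Spry2 holding 3. At least 2 summits were present at 6 of 35 genes (17.1%), against 11.6% of all genes, and at least 3 at Spry2 alone (2.86%, against 5.24%). Of the 23 summits, those at Fgf1, Fgf7 and Fgf18 also counted for a neighbouring gene. With summits that count for a single gene alone, 13 of 35 genes (37.1%) were bound, against 18.1% of all genes. Summits inside the gene body were present at 11 genes (31.4%, against 19.8% of all genes), and within 5 kb of it at 13 (37.1%, against 27.1%). By the gene nearest to each summit, at any distance, 20 genes (57.1%) were named, against 29.0% of all genes. Neither this share nor that of summits counting for a single gene takes the spacing of neighbouring genes into account. With peaks of −log10 q of at least 10 alone 9 genes (25.7%) were bound, against 14.2%.

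Long genes hold more summits, so the count was also read by the length of the gene body. Of the 14 genes with bodies under 10 kb 4 were bound, namely Dusp6, Fgf20, Spry1 and Spry2, and the share among all genes of that length was 17.2%. Between 10 and 50 kb 3 of 10 were bound (Etv4, Fgf9 and Fgf18) against 30.0% of all genes. Between 50 and 100 kb 7 of 8 were bound, all but Fgf2, against 44.0% of all genes. Of the 3 genes of 100 kb and over, Fgf12 and Fgf14 were bound and Fgfr2 was not, against 64.0% of all genes. The share of bound genes was thus above the background mainly between 50 and 100 kb, near it between 10 and 50 kb and from 100 kb on, and above it in the shortest class by few genes. The length classes were set with the bound genes already known.

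**Figure D1:**
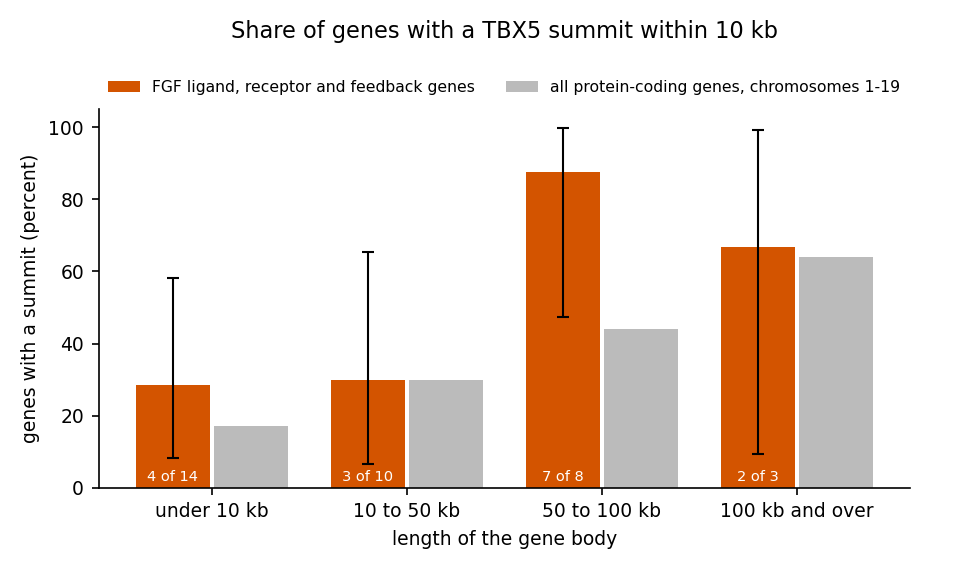
Share of genes with a TBX5 summit in the body or within 10 kb (vertical axis, percent) by length of the gene body (horizontal axis). Orange bars are the 35 FGF ligand, receptor and feedback genes with exact 95% binomial intervals, and grey bars are all protein-coding genes on chromosomes 1 to 19. In the class of 50 to 100 kb 7 of 8 FGF pathway genes had a summit, against 44.0% of all genes, and the interval of 47.3 to 99.7 is wide.

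Peaks reached the promoters of 4 of the 6 Sprouty and Spred genes, which encode inhibitors of receptor signalling to RAS and MAP kinase. RefSeq promoter windows (250 bases before to 50 after a start, build GRCm38.p6, the assembly that mm10 names) were matched for 26 of the 35 genes. Windows were not matched for Dusp4, Etv4, Fgf1, Fgf8, Fgf15, Fgf17, Fgf20, Fgfr1 and Spry4. A peak overlapped the window by at least 1 base at Spry1, Spry2, Spred1, Spred2 and Fgf9, that is 5 of 26 genes, against 9.10% of 16457 genes with a window. The −log10 q of these peaks was 12.9 at Spry2. It was below 10 at Spred2 (7.76), Spry1 (6.11), Spred1 (4.62) and Fgf9 (3.62). The 250 bases before the start of the 4 inhibitor genes are shown 5′ to 3′ along the gene, because these are the promoters that TBX5 peaks cover. Capitals mark the bases inside the called peak.
Spry1 (chr3:37639697-37639946, plus strand): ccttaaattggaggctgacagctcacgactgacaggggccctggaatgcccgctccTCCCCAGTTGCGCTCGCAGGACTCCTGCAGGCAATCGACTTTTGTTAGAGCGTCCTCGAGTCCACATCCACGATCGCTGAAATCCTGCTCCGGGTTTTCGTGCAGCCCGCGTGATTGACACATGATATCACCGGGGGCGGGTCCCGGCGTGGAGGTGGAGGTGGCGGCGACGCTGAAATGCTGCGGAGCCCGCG
Spry2 (chr14:105896820-105897069, minus strand): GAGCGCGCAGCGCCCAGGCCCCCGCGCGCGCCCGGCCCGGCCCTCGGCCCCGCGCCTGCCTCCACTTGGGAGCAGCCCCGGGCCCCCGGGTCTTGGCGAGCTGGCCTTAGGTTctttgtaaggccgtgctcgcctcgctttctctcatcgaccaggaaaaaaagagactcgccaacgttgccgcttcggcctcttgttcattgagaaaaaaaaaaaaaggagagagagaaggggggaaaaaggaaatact
Spred1 (chr2:117120821-117121070, plus strand): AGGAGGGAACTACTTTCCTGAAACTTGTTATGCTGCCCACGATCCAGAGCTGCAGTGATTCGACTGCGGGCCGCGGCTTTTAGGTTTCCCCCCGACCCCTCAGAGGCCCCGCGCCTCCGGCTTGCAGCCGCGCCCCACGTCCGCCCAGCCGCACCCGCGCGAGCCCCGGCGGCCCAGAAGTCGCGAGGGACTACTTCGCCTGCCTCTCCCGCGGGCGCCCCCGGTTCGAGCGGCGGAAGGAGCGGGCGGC
Spred2 (chr11:19924192-19924441, plus strand): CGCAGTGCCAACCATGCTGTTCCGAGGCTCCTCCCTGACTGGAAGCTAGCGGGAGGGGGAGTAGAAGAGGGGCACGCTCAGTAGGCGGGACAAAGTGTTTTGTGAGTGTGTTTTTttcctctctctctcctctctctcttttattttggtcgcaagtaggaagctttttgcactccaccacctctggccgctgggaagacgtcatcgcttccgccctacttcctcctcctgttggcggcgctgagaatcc
The peak covered all 250 bases at Spred1, 194 at Spry1, 115 at Spred2 and 113 at Spry2. At Spred2 and Spry2 the covered bases are those farthest from the start, and at Spry1 the uncovered 56 bases are the farthest. At Fgf9 the peak reached only 10 bases into the window. GC content over the 250 bases was 62.4% at both Spry1 and Spry2, 70.8% at Spred1, 56.0% at Spred2 and 44.8% at Fgf9. The median over 20085 windows was 56.0%, over the 1659 windows with a peak 63.6%, and over the 31 windows of the 26 genes 62.4%. The share of 9.10% of genes with a peak in a window was not matched for GC content.

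Spry2 had the most summits of all 35 genes, 3 within 3710 bp around its start. Fold enrichment, as deposited by the authors, compares the pooled ChIP fragments over the summit with the local background. Each interval given with it is the exact 95% Poisson interval of the fragment count, with the background held fixed. It covers counting error of the ChIP fragments only, so whether intervals overlap is a description and no test of a difference. The strongest peak of Spry2 lay 1615 bp downstream of the start (chr14:105894954-105895523), with 8.59-fold enrichment (6.29 to 11.5) from 44 fragments, the largest fragment count among the 23 peaks. The peak shown above, with its summit 265 bp upstream, had 5.87-fold enrichment (4.05 to 8.26), and another, 2095 bp upstream, had 3.59-fold (2.23 to 5.50). The intervals of the strongest and the weakest of these did not overlap. Only the weakest of the 3 overlapped a TBX3 region. Spry1 had a single peak with its summit 11 bp upstream of the start (chr3:37639753-37639969, 3.91-fold, 2.58 to 5.70, 25 fragments).

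Spred1 and Spred2 each paired a promoter peak with a stronger one in the gene body. At Spred1 the promoter summit, 73 bp upstream of the start (chr2:117120667-117121139), had 27 fragments over a background of 7.77, a fold of 3.19 (2.14 to 4.59). The second, 19534 bp downstream (chr2:117140352-117140777), had 23 fragments over a background of 1.48, a fold of 9.66 (6.27 to 14.3). The promoter thus had slightly more fragments but the lower fold, over the highest background of all 23 peaks. At Spred2 the summit 253 bp upstream had 5.02-fold enrichment (3.23 to 7.48), and the one 42073 bp downstream (chr11:19966377-19966607) had 7.03-fold (4.68 to 10.2). Those intervals overlapped. Spred3 and Spry4 were not bound. The nearest summit of Spry4 lay 10165 bp from its body (4.63-fold, 2.92 to 7.04), just beyond the window, and Spry4 was the nearest protein-coding gene to it. The nearest summit of Spred3 lay 68360 bp away, in the body of Yif1b.

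**Figure D2:**
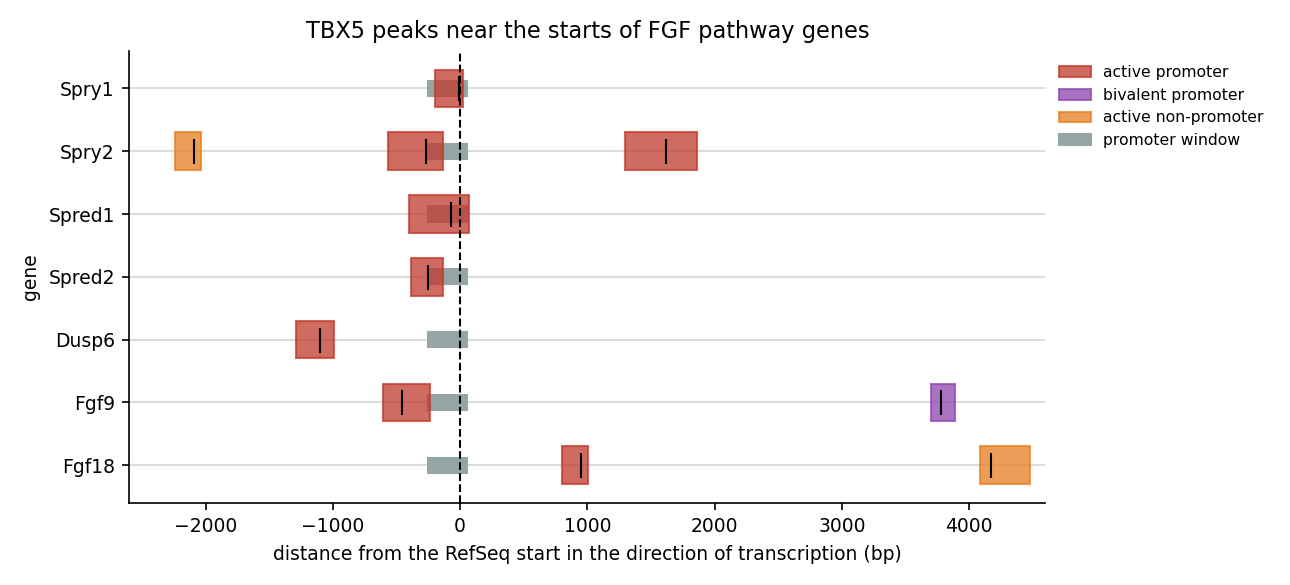
Peaks (boxes, coloured by the authors' chromatin class, with the summit as a black tick) placed by their distance in bp from the RefSeq start of 7 FGF pathway genes, with positive values downstream. Grey bars are the promoter windows of 300 bases. Peaks at Spry1, Spry2, Spred1 and Spred2 reach into the window, and the upstream Fgf9 peak does so by only 10 bases. The Dusp6 summit lies 1099 bp upstream of the start, and the nearer Fgf18 peak begins 800 bp downstream.

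Dusp6, which encodes the phosphatase that removes phosphate from ERK and a widely used readout of FGF signalling, had 1 weak peak in the window and stronger ones farther out. The peak in the window lay 1099 bp upstream of the start (chr10:99261938-99262243), with 2.72-fold enrichment (1.69 to 4.17) from 19 fragments over a background of 6.36. It ranked 12355 of 12436 peaks by fold. A peak of 13.3-fold (9.92 to 17.4) lay 19453 bp downstream of the body (chr10:99286771-99287141), in an active non-promoter class and overlapping a TBX3 region. Further summits lay 20593 bp upstream (6.14-fold, 3.60 to 9.87) and 50436 and 68692 bp downstream (7.58-fold, 5.12 to 10.8, and 6.44-fold, 3.78 to 10.4). Dusp6 was the nearest protein-coding gene to each of these 4, none of which entered the count. Dusp5, a nuclear ERK phosphatase gene, had a poised summit 11395 bp away (5.49-fold, 3.45 to 8.34), and Dusp4 had none nearer than 54361 bp.

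Both ETS factor genes were bound outside their bodies. Etv4 had a peak 5495 bp upstream (chr11:101790758-101790957, 5.58-fold, 3.38 to 8.75, 17 fragments) that overlapped H3K27ac, H3K4me1, H3K4me3, H3K9ac and a TBX3 region. Etv5 had a peak 8708 bp upstream (chr16:22448169-22448410, 6.53-fold, 4.28 to 9.60, 24 fragments) that overlapped H3K4me1 alone. Neither had a summit within 5 kb, so both calls depend on the width of the window. A second poised summit of the same fold (6.53, 4.28 to 9.60) lay 32367 bp from the Etv5 body on its other side, with Etv5 as the nearest gene, and an active one of 7.15-fold (4.39 to 11.1) lay 45027 bp from Etv4.

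The 2 highest folds at the 35 genes were at the ligand genes Fgf7 and Fgf20, and the next, 9.66, was at Spred1. In the usual grouping of ligands into 7 subfamilies (Fgf13 and Fgf16 lie on the X chromosome), 2 of the 4 genes Fgf3, Fgf7, Fgf10 and Fgf22 were bound, both of Fgf9 and Fgf20, 2 of the 3 intracellular factor genes Fgf11, Fgf12 and Fgf14, 1 of the 3 genes Fgf8, Fgf17 and Fgf18, and 1 of the pair Fgf1 and Fgf2. None of Fgf4, Fgf5 and Fgf6 and none of the endocrine ligand genes Fgf15, Fgf21 and Fgf23 was bound. All of these but Fgf5 have bodies under 10 kb, a class in which 17.2% of all genes were bound. The share over genes of any length was 30.9%, and groups of 2 to 4 genes are too small to set against it. Fgf7, a ligand made by mesenchyme that acts on epithelial receptors, had the highest fold of the 35 genes, 13.5 (9.81 to 18.3) from 41 fragments, in its body 4883 bp from the RefSeq start (chr2:126039408-126039705). The peak overlapped a TBX3 region and also counted for Fam227b, and it ranked 1172 of 12436 peaks. Fgf10, the related ligand of lung and limb outgrowth, had its 9.30-fold peak (6.29 to 13.3) in the gene body 44531 bp from the start (chr13:118759002-118759370). A second summit, of 10.6-fold (7.34 to 14.8), lay 19437 bp outside the body (chr13:118695115-118695391), with Fgf10 as the nearest gene, and was outside the authors' active and poised classes.

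Fgf20 had the second highest fold, 10.5 (6.92 to 15.3) from 25 fragments, at a poised peak 5620 bp beyond the gene body and 13407 bp downstream of its start (chr8:40273372-40273701). The background of the Fgf20 peak, 1.48, equalled the lowest among all 12436 peaks, whose median fragment count was 22. Fgf9, which belongs to the same subfamily, instead had a pair of weak promoter-class peaks, with 3.44-fold enrichment (2.14 to 5.27) 457 bp upstream of the RefSeq start and 3.797-fold (2.23 to 6.11) 3781 bp downstream of it. The authors assigned the second to another start 1352 bp away. That Fgf9 peak (chr14:58076386-58076575) was the only one of the 23 that overlapped H3K27me3, the mark of Polycomb repression, and the authors classed it as bivalent. The intervals of the Fgf20 peak and of both Fgf9 peaks did not overlap.

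Fgf18, a ligand known for roles in lung and skeleton, had summits 949 bp (5.19-fold, 3.46 to 7.51) and 4175 bp (6.27-fold, 4.07 to 9.28) downstream of its start (chr11:33146398-33146600 and chr11:33142918-33143313). Both also counted for Npm1. Fgf1, a ligand that binds all FGF receptors, had a summit in its body (chr18:38882485-38882717, 5.72-fold, 3.64 to 8.61) and another 529 bp outside it (chr18:38929901-38930113, 4.97-fold, 3.05 to 7.70). The 2 lay 47400 bp apart, both overlapped TBX3 regions, and both also counted for Arhgap26 and Gm5820. Fgf12 and Fgf14, the genes with the longest bodies (595 and 703 kb), had 1 summit each in the body, 46318 and 110441 bp downstream of the start that the authors assigned. Their folds were 7.58 (5.12 to 10.8, 28 fragments) and 6.44 (3.78 to 10.4, 15 fragments), and neither peak overlapped any of the 6 histone mark sets or a TBX3 region.

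Of the receptor genes only Fgfr1 was bound, by a peak of 12 fragments in the gene body, the fewest among the 23 (chr8:25543564-25543754, 4.19-fold, 2.32 to 7.08). It lay 11391 bp downstream of the start that the authors assigned and overlapped H3K27ac, H3K4me1, H3K4me3 and H3K9ac. The Fgfr1 call was lost with peaks of −log10 q of at least 10. Fgfr2, the receptor for FGF7 and FGF10, had none in its window, but an active summit lay 13780 bp beyond its 3′ end (6.41-fold, 3.99 to 9.83) and a poised one 49880 bp upstream (8.34-fold, 5.41 to 12.3). Fgfr2 was the nearest gene to both. For Fgfr4 the nearest summits lay at Nsd1, 42962 bp away, and for Fgfr3 no summit lay within 100 kb (nearest 233373 bp).

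Genes without a summit in the window numbered 19, and for 5 of them the nearest lay within 25 kb, for 10 between 25 and 100 kb and for 4 beyond 100 kb. The genes nearest to the limit were Etv5 inside it (8708 bp) and Spry4, Dusp5 and Fgfr2 outside it. Fgf22 and Fgf21 had the nearest summits 22301 and 23375 bp away, in promoter-class peaks nearest to other genes (Fstl3 and Rasip1). The same held for Fgf11 (37384 bp, Polr2a), Fgf15 (38187 bp, Ccnd1), Fgf17 (58510 bp, Nudt18) and Fgf6 (75555 bp, D6Wsu163e). Fgf3 and Fgf4 shared their nearest summit, 49640 and 72414 bp away (3.97-fold, 2.41 to 6.23). Fgf8, the ligand of the outflow tract and second heart field, had no summit within 10 kb, but 1 of 10.1-fold (6.597 to 14.8) lay 38455 bp away (chr19:45697899-45698131), and Fbxw4 was nearer to it (37516 bp). Beyond 100 kb lay those of Fgf23 (132915 bp), Fgf5 (148130 bp), Fgf2 (229830 bp) and Fgfr3. The nearest summit of Fgf2 was the promoter peak of Spry1. With a window of 50 kb 26 of 35 genes (74.3%) had a summit, against 51.3% of all genes, and with 100 kb 31 (88.6%), against 65.6%. A missing summit means that no called peak lay there.

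**Figure D3:**
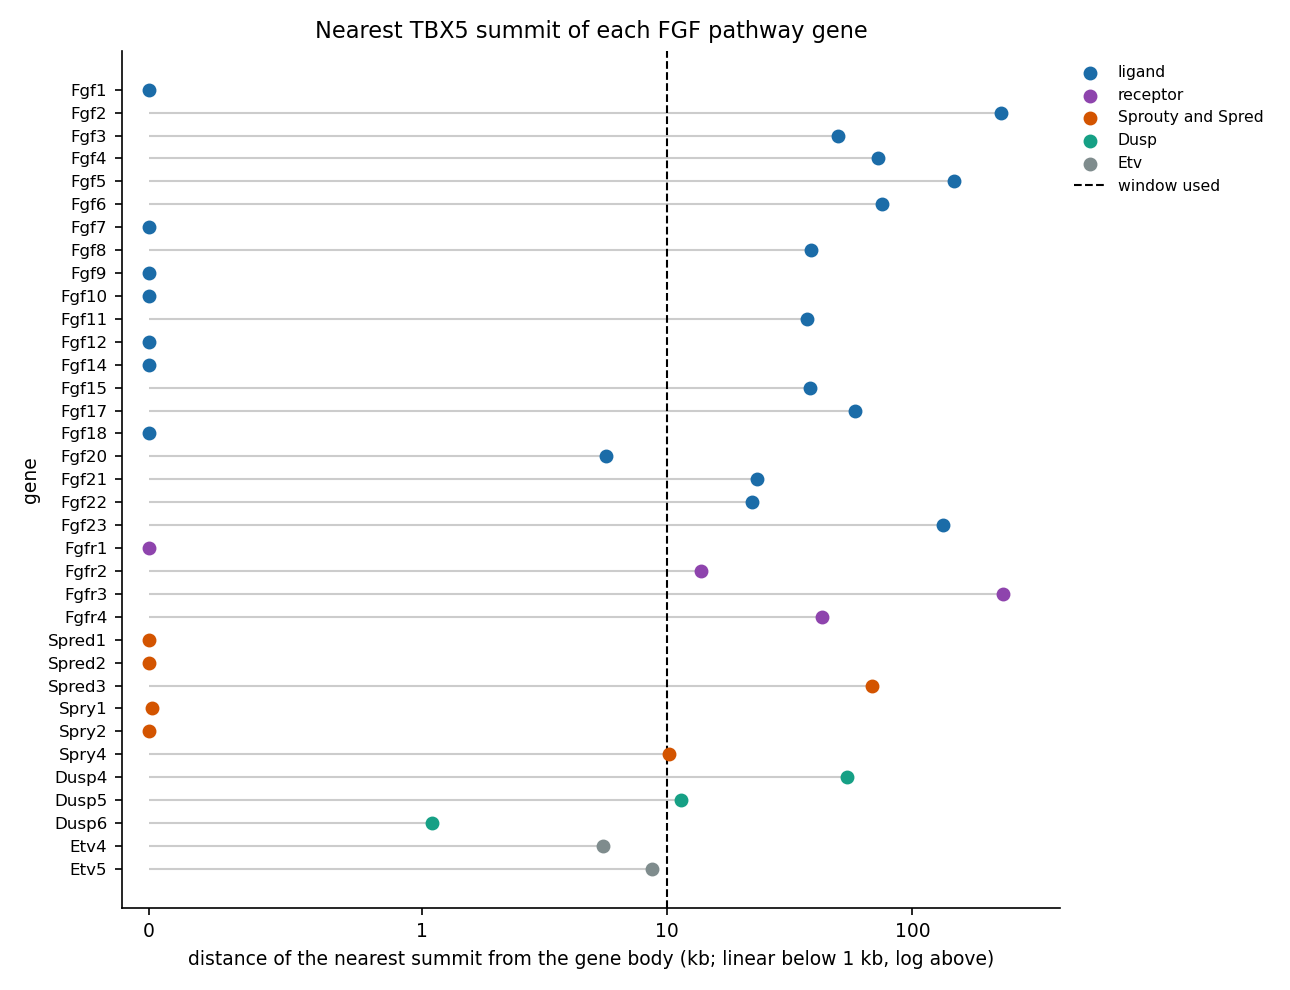
Distance in kb from the body of each of the 35 genes to its nearest TBX5 summit (horizontal axis, linear below 1 kb and logarithmic above), coloured by role. Values of 0 are summits inside the body, and the dashed line is the 10 kb limit. Etv5 lies just inside the limit at 8708 bp, and Spry4 at 10165 bp and Dusp5 at 11395 bp lie just outside it.

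The 23 peaks had a median fold of 5.72 (range 2.72 to 13.5), beside 5.67 for all 12436 peaks and 5.45 for the 8982 peaks that counted for any gene. A fold of at least 10 was reached by 2 of 23 (8.70%), at Fgf7 and Fgf20, against 16.7% of all peaks. The median fragment count was 23 (range 12 to 44), beside 22 for all peaks, and the median background was 2.84, beside 2.83. Of the 23 peaks 10 (43.5%) had −log10 q of at least 10, against 41.5% of all peaks. The 10 promoter-class peaks had a median fold of 4.44 and the 13 others 6.53, which lay beside 4.40 and 6.23 for the same classes of all peaks. The 4 poised peaks, at Fgf10, Fgf20, Spred1 and Etv5, ranged from 6.53 to 10.5 and had a median of 9.48, beside 6.41 for all 1763 poised peaks.

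**Figure D4:**
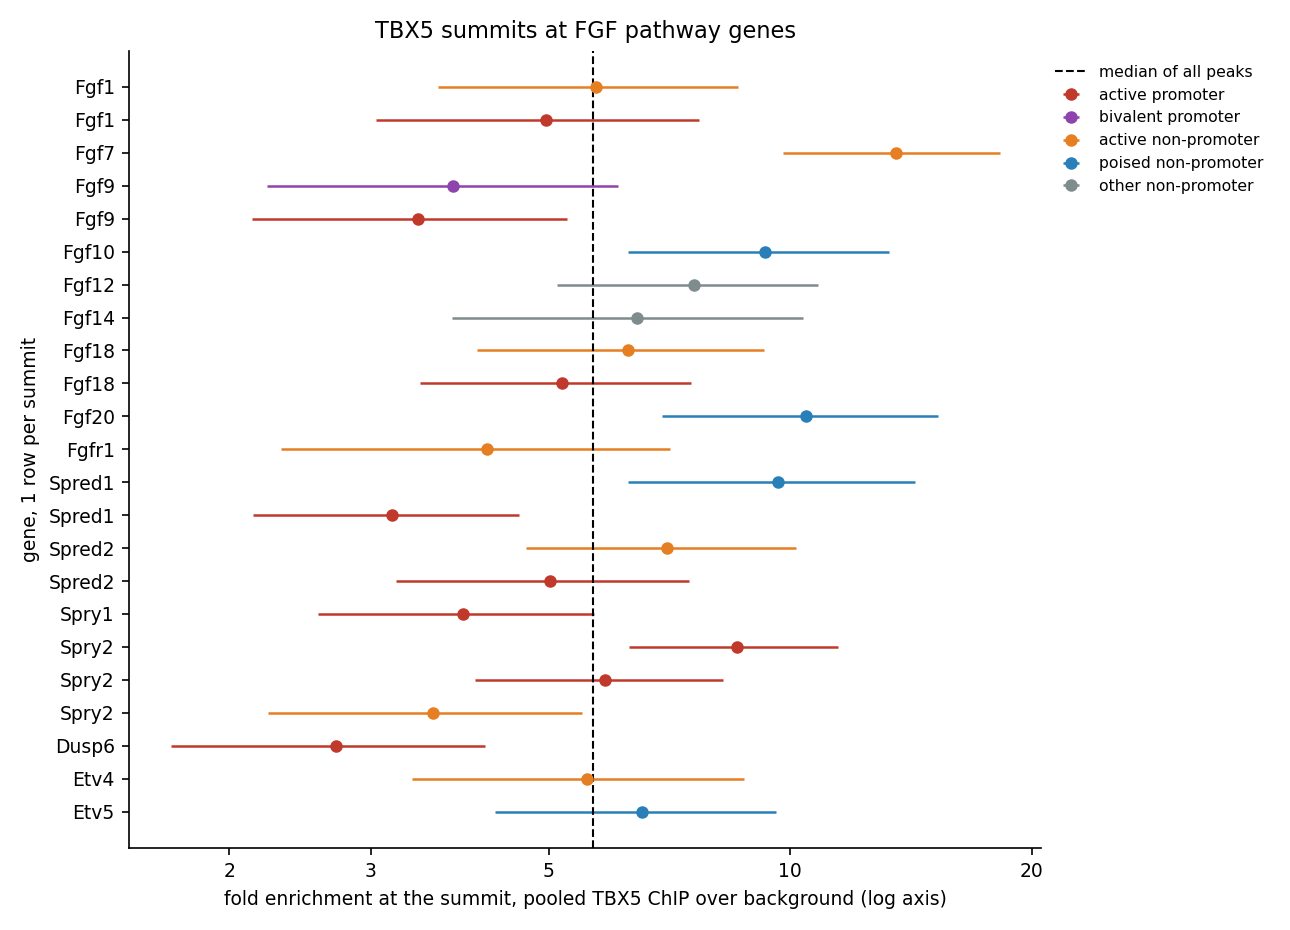
Fold enrichment at each of the 23 summits (horizontal logarithmic axis), 1 row per summit, with genes ordered by role and points coloured by the authors' chromatin class. Bars are exact 95% Poisson intervals of the pooled fragment count with the background held fixed. The dashed line is the median of all peaks, 5.67. The poised peaks of Fgf10, Fgf20 and Spred1 and the active peak of Fgf7 and the strongest of Spry2 have intervals wholly above the line, while most promoter peaks lie below it.

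The chromatin around the peaks was read from the authors' table, which marks overlap with regions of 6 histone modifications taken from ENCODE and with TBX3 regions. The 23 peaks were divided by the authors into 9 active promoter, 7 active non-promoter, 4 poised and 2 other non-promoter peaks and 1 bivalent promoter peak. Active promoter peaks made up 39.1%, against 23.4% of all peaks, and active non-promoter peaks 30.4%, against 50.2%. Poised peaks made up 17.4%, against 14.2%, other non-promoter peaks 8.70%, against 10.1%, and the bivalent promoter peak 4.35%, against 0.193%. Peaks of the promoter class, within 2000 bp of a start, made up 10 of 23 (43.5%, 23.2 to 65.5), against 24.6% of all peaks and 32.9% of the peaks that counted for any gene. They belonged to 8 of 35 genes (22.9%), against 17.9% of all genes, namely Spry1, Spry2, Spred1, Spred2, Dusp6, Fgf1, Fgf9 and Fgf18. All 10 overlapped H3K27ac, H3K4me3 and H3K9ac, marks of active promoters, against 93.9%, 90.9% and 93.0% of all promoter-class peaks. The enhancer mark H3K4me1 overlapped 2 of the 10, at Fgf1 and Fgf18, against 39.7% of all promoter-class peaks.

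Non-promoter peaks were present at 13 of 35 genes (37.1%), against 18.1% of all genes. Of these 13 peaks 11 overlapped H3K4me1 (84.6%, against 82.9% of all non-promoter peaks), and the exceptions were Fgf12 and Fgf14. H3K27ac, the mark that separates active from poised enhancers, overlapped 7 of 13 (53.8%, 25.1 to 80.8), against 66.9%. H3K4me3 overlapped 4 of 13 (30.8%, 9.09 to 61.4), against 12.6%, at Etv4, Fgf18, Fgfr1 and Spry2. Poised peaks were present at 4 of 35 genes (11.4%), against 4.84% of all genes. TBX3 regions overlapped 8 of the 23 peaks (34.8%, 16.4 to 57.3), against 27.03% of all peaks. They lay at Etv4, Fgf1, Fgf7, Fgf9, Fgf18 and Spry2, that is at 6 of 35 genes (17.1%), against 13.9% of all genes. By class, TBX3 regions overlapped 4 of the 10 promoter-class peaks, against 44.98% of all promoter-class peaks. They overlapped 4 of the 13 non-promoter peaks, against 21.2% of all non-promoter peaks. None of the 4 poised peaks, and none of the peaks of Spred1, Spred2, Spry1 or Dusp6 in the window, overlapped a TBX3 region. No share over all poised peaks is given, and these peaks are too few to read a result from the absence. H3K27me3 overlapped 1 of 23 (4.35%, against 1.63% of all peaks). H3K9me3 overlapped none, against 0.241% of all peaks, and at 23 peaks the exact interval allows a share of up to 14.8%. The shares of all peaks lay inside the intervals of the 23 peaks for H3K27ac (51.6 to 89.8), H3K4me1 (34.5 to 76.8), H3K9ac (38.5 to 80.3) and TBX3. For H3K4me3 (60.9%, 38.5 to 80.3) the share of all peaks, 31.8%, lay outside, while that of the 8982 peaks counted for any gene, 39.04%, lay inside.

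**Figure D5:**
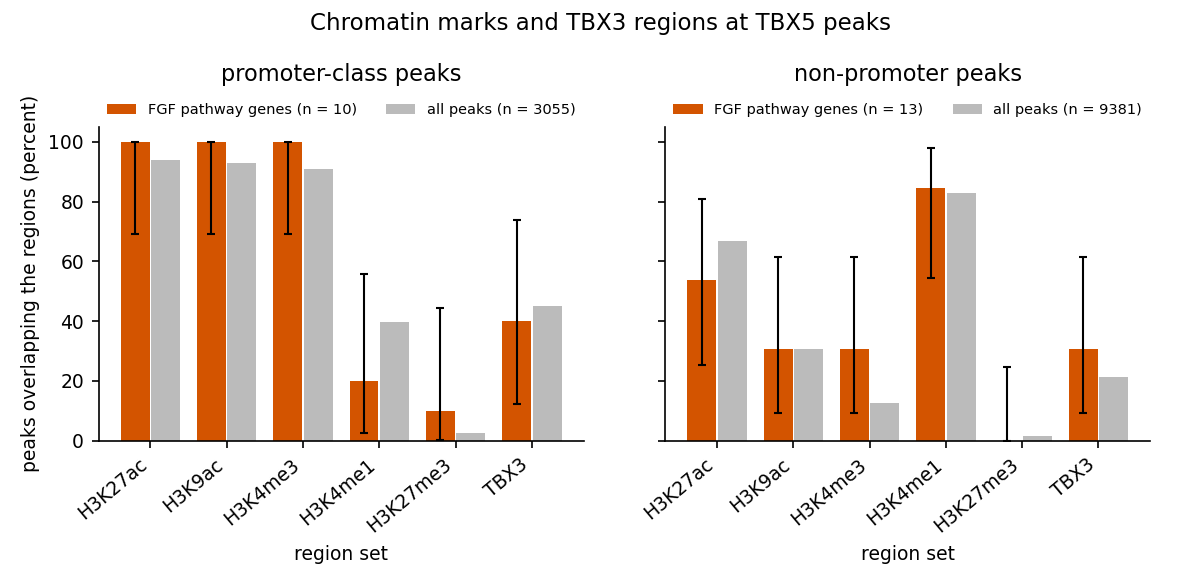
Percent of peaks that overlap regions of 5 histone marks and of TBX3, for promoter-class peaks (left) and non-promoter peaks (right). Orange bars are peaks at the FGF pathway genes with exact 95% binomial intervals, and grey bars are all peaks of the class. All 10 promoter-class peaks carry H3K27ac, H3K9ac and H3K4me3, and 11 of 13 non-promoter peaks carry H3K4me1.

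The promoter windows were searched for words that T-box factors bind, namely AGGTGT on both strands (ACACCT as its reverse complement), the longer AGGTGTGA that contains it and the shorter GGTGT that it contains. AGGTGT was present in the windows of 3 of 26 genes (11.5%), Fgf5, Fgf12 and Fgfr3, against 14.8% of 16457 genes. None of these windows overlapped a peak. GGTGT was present in 7 of 26 genes (26.9%), against 43.8% of genes, and AGGTGTGA in none, against 1.37%. The 5 windows that a peak overlapped held none of these words. No share over all windows with a peak is given, and 5 windows are too few to read a result from the absence. The ETS word CCGGAAGT was also in none of the 26, against 5.84% of genes. The 3 stretches that hold AGGTGT upstream of a start are shown 5′ to 3′ along the gene, with the word in capitals as its reverse complement, to show the matches before a start. A further match in an Fgf12 window lies past the start and is not shown.
Fgf12 (chr16:28446236-28446261, minus strand): gctggggaggACACCTtcggcagctt
Fgf5 (chr5:98254052-98254077, plus strand): tgagggcgagACACCTcctcccactc
Fgfr3 (chr5:33721475-33721500, plus strand): agacgccctaACACCTagacccccac
These lie 176, 122 and 239 bases upstream of a start of Fgf12, Fgf5 and Fgfr3. The windows cover 300 bases, so the words were not looked for in the rest of a peak.

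Other genes of the pathway were read from a list of adaptors, RAS and MAP kinase components, coreceptors, heparan sulfate enzymes and further target genes. Of the 42 genes on chromosomes 1 to 19 (Dusp9 lies on the X chromosome) 22 were bound (52.4%, 36.4 to 68.0), against 30.9% of all genes. Their bodies were longer, with a median of 64.3 kb against 17.5 kb for all genes and 15.1 kb for the 35 genes. Among all genes with bodies of 50 to 100 kb 44.0% were bound, and among those of 100 kb and over 64.0%. The share of 30.9% is thus not matched for length. The strongest peak was at the promoter of Sulf1, an enzyme that trims heparan sulfate and so alters ligand binding, with 15.1-fold enrichment (11.96 to 18.8) 42 bp from a start. Ext1, a heparan sulfate polymerase, followed with 12.5-fold (8.94 to 17.0) and Dusp1, an immediate early MAP kinase phosphatase, with 11.2-fold (8.99 to 13.7). Ksr1, a scaffold of the MAP kinase cascade, reached 11.2-fold (8.23 to 14.8). Flrt1, a receptor-binding membrane protein, reached 10.5-fold (7.26 to 14.7) at a peak that also counted for Macrod1, and Nf1, a RAS GTPase activator, 8.46-fold (5.32 to 12.8) at one that also counted for Evi2, Evi2a and Evi2b. The median fold of the 37 peaks was 5.05, and 15 of them (40.5%) were of the promoter class.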

How the data were processed

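TBX5 ChIP-seq peaks of mouse embryonic hearts were used, from 2 ChIP samples and 1 input. The submitters' processing notes name Bowtie2, SAMtools, MACS2, ChIPseeker and the mm10 build, without versions or settings. Per the file headers and names, the authors pooled the ChIP samples and called the deposited peaks once. The deposited fold is a ratio of ChIP to local background at the summit, the deposited −log10 p and −log10 q belong to the same call, and the deposited score, 10 times −log10 q, was not used. The sources used here do not state the read depth of the samples. Chromatin classes and overlap calls are the authors' own, and neither their overlap rules nor the tissue and stage of those regions are stated. H3K27ac, H3K4me1 and H3K4me3 have 2 region files each, and a peak marked in either counted as marked.

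Fragment counts were solved from fold, (count + 1)/(background + 1), and −log10 p as a Poisson tail. A whole count matched −log10 p within 0.0005 for all 12436 peaks, and 100% of 982 simulated peaks were recovered. Gene bodies came from the RefSeq table of GRCm38.p6, which gives no exons, and positions are 1-based. Every one of the 35 genes is named. Bound genes are given with each summit, unbound genes with the distance to the nearest, and of the other pathway genes the 6 of highest fold are given with values. The genes and lists were chosen with earlier results of these data known. Shares carry exact Clopper-Pearson 95% intervals, which treat peaks or genes as independent. Alternatives were the window, the peak threshold, overlap by interval, the nearest gene, non-promoter peaks, the region files and the motif. The software was scipy 1.17.1, pandas 2.3.3 and numpy 2.4.6 under Python 3.11.15, with matplotlib 3.10.9 for plots.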

Additional observations from a re-analysis of the deposited data

How the results depend on the processing

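All values rest on 1 pooled call, so no replicate could be left out. No paired analysis was possible because the peaks were called on the pooled samples and the columns carry no replicate. Over 16 results, 54 of 90 alternative values stayed within 1.5 times the count, or inside the interval of the share or median, and 36 did not. The number of bound genes, 16 with the 10 kb window, was 11 with the gene body alone, 13 at 5 kb, 20 by the nearest gene and 13 with non-promoter peaks alone or, in an alternative chosen after seeing the data, without summits that count for another gene too.

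With the gene body alone the summits numbered 13, and 0 phosphatase and 0 ETS factor genes were bound. At 5 kb 0 ETS factor genes were bound. At 50 kb 26 genes, 46 summits, 14 ligand, 3 receptor and 2 phosphatase genes were found. With −log10 q of at least 10 there were 9 bound genes (25.7%, against 14.2% of all genes), 10 summits of median fold 8.09, 5 ligand, 0 receptor, 0 phosphatase and 1 ETS factor genes, and 8 other pathway genes. Of these 10 peaks 50.0% overlapped H3K27ac, 30.0% H3K4me3, 0% H3K27me3 and 10.0% TBX3 regions, and 20% were of the promoter class. With a fold at or above the median there were 12 summits of median fold 7.30, 0 receptor, 0 phosphatase and 1 ETS factor genes, and 9 other pathway genes. By the nearest gene 49 summits, 2 receptor and 3 phosphatase genes were found. Non-promoter peaks alone gave 13 summits, 0 phosphatase genes and 12 other pathway genes. The T-box word was found at 0 genes as AGGTGTGA and at 7 as GGTGT. Wider windows and stricter thresholds change these counts by their construction. The fragment counts of 12 to 44 limit the precision of each fold.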
